A study of Homo sapiens with 4 samples.

Results

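A549/DDP, a cisplatin-resistant derivative of the human lung adenocarcinoma cell line A549, was compared with parental A549 in ribosomal RNA-depleted total RNA. Both libraries share the A549 genetic background, and no other genotype or treatment is given for either. A549/DDP was made by exposing A549 to rising doses of cisplatin (DDP) over several months, and the drug that maintained resistance was withdrawn before the experiment. The sources do not say whether A549/DDP is a single clone. The comparison uses 2 of the 4 libraries of the series, 1 per line, and the other 2 are HCC827, an EGFR-mutant lung adenocarcinoma line, and its resistant derivative HCC827/GR. The labels call that derivative cisplatin-resistant, whereas the study's methods call it gefitinib-resistant, and its values are given here only for orientation. With 1 library per line there is no spread between replicates, so no test was run and no p-value is given. Every interval is a 95% interval that covers counting error only, and it says nothing about how much 2 cultures of the same line would differ.

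The members were the circRNAs and the annotated lncRNA genes measured in these libraries. Of 3840 circRNAs, 3785 had 10 counts or more in A549 or A549/DDP, and these came from 2242 of 2279 host genes, the genes from whose transcripts the circles are made. Of 7988 annotated lncRNA genes, 1584 had 20 read pairs or more in either library. The A549 library held 4.34 gigabases of aligned sequence and A549/DDP 4.62, and the circRNA counts summed to 1760400 and 1960456. Values were scaled to these totals, the first for lncRNAs and the second for circRNAs. A member is called higher or lower when its scaled ratio of A549/DDP to A549 is at least 2 or at most 0.5 after 3 counts or read pairs are added in each library, and log2 values below include these 3.

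Cisplatin forms crosslinks between DNA bases, which block replication and set off the DNA damage response. Cells are known to resist it by taking up less drug or exporting more, by binding it to glutathione, by repairing or bypassing the lesions, or by failing to die. A circRNA is a closed RNA made when the end of an exon is spliced back to the start of the same or an earlier exon. An intronic circle is a ciRNA, left from a lariat. LncRNAs are long transcripts with no known protein product. Some are scaffolds of nuclear bodies, and others are precursors whose introns or exons release small nucleolar RNAs (snoRNAs) or microRNAs.

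Several lncRNA genes described here are precursors of the microRNAs below, and their mature sequences are shown because the hosts differed between the lines. The sequences are RefSeq entries on GRCh38.p14, with the seed (bases 2 to 8), which pairs with target mRNAs, in capitals. The mature microRNAs themselves were not analysed here. DLEU2 on chromosome 13 and MIR497HG on chromosome 17 are the hosts of 4 microRNAs of the miR-15/16 family, which have 1 seed and are known to restrain cyclins and BCL2.
hsa-miR-15a-5p: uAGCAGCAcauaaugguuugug
hsa-miR-16-5p: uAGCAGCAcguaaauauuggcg
hsa-miR-195-5p: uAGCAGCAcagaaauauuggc
hsa-miR-497-5p: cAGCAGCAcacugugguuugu
MIR17HG on chromosome 13 is the precursor of the miR-17-92 cluster, known for promoting proliferation, and the pair shown shares a seed.
hsa-miR-17-5p: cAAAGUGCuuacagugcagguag
hsa-miR-20a-5p: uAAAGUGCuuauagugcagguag
MIR222HG on chromosome X is the precursor of miR-221 and miR-222, whose 3p arms share a seed and repress the cyclin-dependent kinase inhibitor p27.
hsa-miR-221-3p: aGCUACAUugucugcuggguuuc
hsa-miR-222-3p: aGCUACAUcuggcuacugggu
MIR210HG on chromosome 11 is the host of miR-210, a microRNA induced by hypoxia.
hsa-miR-210-3p: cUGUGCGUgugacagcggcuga

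The circRNA counts are not counts of back-splice junctions alone. In all 2754 comparisons of a circle with a circle of the same gene nested inside it that has fewer exons, counted over both libraries, the outer circle had at least as many counts as the inner. Among hosts with several circRNAs, 38.3% of the circRNA values in A549 were whole numbers within 0.01, whereas 81.1% of the sums over a host were. The values therefore behave as reads over the exons of the circles, divided among overlapping circles. Reads of the linear mRNA of the host were not separated from them, and a circRNA value below describes the exons of its host and not the circle alone. Hosts are described by the sum over their circles for this reason.

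ALDH1A1 and CYP24A1 were abundant in both A549 lines and low in both HCC827 lines, and CYP24A1 was not among the chosen markers of the line. ALDH1A1, an aldehyde dehydrogenase abundant in A549, was the most abundant host with 69461 counts in A549 and 62674 in A549/DDP, against 23 in HCC827 and 194 in HCC827/GR. CYP24A1, the enzyme that inactivates vitamin D, had 19336 and 23755 counts in the A549 lines and 177 and 0 in the HCC827 lines. CDKN2B-AS1, the lncRNA of a region of chromosome 9 that A549 has lost, was listed at 0 in the parental line and had 3.05 read pairs in its derivative. It had 51.7 in HCC827 and 0 in HCC827/GR. Other chosen markers of the line were not higher in A549 than in HCC827. H19 had 105 and 91.2 read pairs in the A549 lines and 7038 and 1736 in the HCC827 lines. UCA1 had 6 and 0, beside 165 and 1505. The host CPS1 had 2971 and 39876 counts, beside 39278 and 6134. Of 17 lncRNA markers of fibroblasts or blood cells, 11 were in the table, with 102 read pairs in A549 and 57.5 in A549/DDP in all, and 4 and 3 of them were listed at 0. MEG3 held most of the sum in A549 with 74.1 read pairs, beside 9.99 in A549/DDP. PCED1B-AS1 had 2.72 and 21.2 read pairs and MIR100HG 13.9 and 15.9, while FENDRR and LINC00861 were listed at 0 in both. The part of these markers in the results was not tested.

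Of the 2242 host genes, 65 (2.9%) were 2-fold or more higher in A549/DDP and 187 (8.34%) were lower, with a median log2 ratio of 0.03. The circRNAs taken singly gave 117 higher (3.09%) and 279 lower (7.37%) of 3785. Among the genes with 2-fold differences, those lower in A549/DDP were therefore the larger group. The plot of host genes shows the 2 libraries along a narrow diagonal with a few genes far from it.

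**Figure D1:**
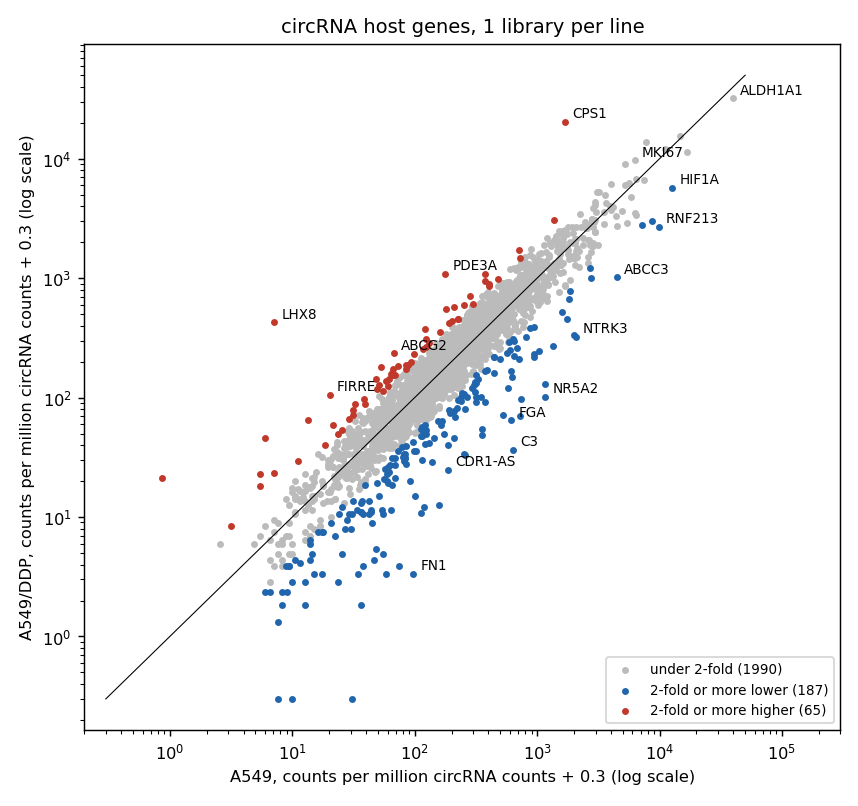
Each point is a circRNA host gene, with its summed circRNA counts scaled to the library total (cpm) in A549 on the x axis and in A549/DDP on the y axis, both on log scales after 0.3 is added. The 65 genes in red and 187 in blue were 2-fold or more higher or lower, and LHX8, CDK14 and CPS1 have the 3 highest log2 ratios.

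LHX8, a LIM-homeobox transcription factor of the developing brain and of oocytes, had the largest difference upward. Its single circle of 7 exons (chromosome 1, 75136603 to 75157076, plus strand, as the table gives it, with the genome build not stated) had 12 counts in A549 and 836 in A549/DDP. This is a 62.6-fold difference (35.6 to 122), and both HCC827 libraries had 0 counts. CDK14, a cyclin-dependent kinase of the PFTAIRE group, had 1 count in A549 and 41 in A549/DDP, a ratio of 36.8 whose interval runs from 6.25 to 1489. FAM196A went from 10 to 89 counts (7.99-fold, 4.15 to 17.2) and CABYR, a calcium-binding protein of the sperm tail, from 23 to 127 (4.96-fold, 3.16 to 8.1). All 4 of these hosts were low in A549, and none had a count in either HCC827 library.

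CPS1, carbamoyl phosphate synthetase 1, makes the carbamoyl phosphate that enters the urea cycle. Its 7 circles summed to 2971 counts in A549 and 39876 in A549/DDP, 12.1-fold more (11.6 to 12.5), which made it the second most abundant host after ALDH1A1. The HCC827 libraries had 39278 and 6134. The level in A549/DDP was therefore close to that of parental HCC827, and the low sample among the 4 was parental A549. The 7 circles had log2 ratios of 2.91 to 3.62, and the lowest belonged to the 1-exon circle circRNA3217, with 22.9 and 214 counts. CPS1-IT1, a lncRNA annotated inside an intron of CPS1, had 48.9 read pairs in A549/DDP, and its entry in the parental line was 0. The protocol does not state strand, so reads of CPS1 precursor RNA and of CPS1-IT1 cannot be told apart.

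PDE3A, a phosphodiesterase that degrades cyclic AMP and cyclic GMP, had 311 counts in A549 and 2128 in A549/DDP, 6.14-fold more (5.45 to 6.94). Its 4 circles were all higher, with log2 ratios of 2.46 to 2.68. FIRRE, a lncRNA of the X chromosome that organises chromatin, is present in both tables. As a circRNA host it had 35 and 207 counts, 5.31-fold more (3.7 to 7.83), and as a lncRNA gene it had 10.8 and 63.9 read pairs, 5.55-fold more (2.89 to 11.8). The tables come from the same libraries and share reads, so these are not independent measurements.

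Single circles of a host mostly moved with it, but overlapping circles share exon reads, so much of this agreement is built into the counts. The same limit holds wherever all circles of a gene are said to be higher or lower. The spread of log2 ratios within hosts (root mean variance 0.24 over 782 hosts with several circles) was smaller than the standard deviation of 0.74 between hosts. Of 714 hosts with 2 or more circles of 50 counts, 8 had circles that differed by 1 or more on the log2 scale. THSD4, a thrombospondin-domain protein of microfibrils, had the widest difference. Its circle circRNA789 had 229 counts in A549 and 60.5 in A549/DDP (4.22-fold lower, 3.16 to 5.69), while circRNA790, which starts at the same exon and runs on to 1 more exon, had 4883 and 5760 (ratio 1.06, 1.02 to 1.1).

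**Figure D2:**
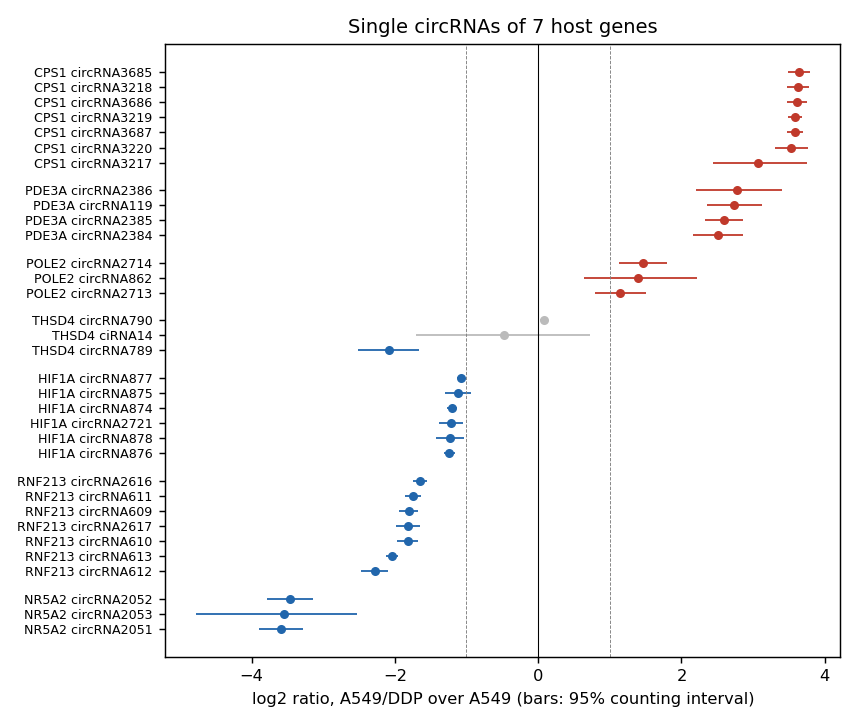
Each point is the log2 ratio of 1 circRNA, A549/DDP over A549 scaled to the total circRNA counts, and its bar is the 95% counting interval. The circles of CPS1, PDE3A, POLE2, HIF1A, RNF213 and NR5A2 stay on 1 side of 0 within each gene, whereas circRNA789 of THSD4 is at or below -1 and circRNA790 near 0.

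Genes of DNA replication and cell division were shifted upward as a group. Of 148 genes on the cell cycle and mitosis list, 73 were measured, of which 60 had a log2 ratio above 0, 7 were higher and 0 lower, with a median of 0.39 against 0.03 for all hosts. The 7 make 9.59% of the list, beside 2.9% of all hosts, and 5 of them stayed past 2-fold when scaled by the median ratio of hosts, which ended the calls of KIF20B and ORC2. CDC25A, the phosphatase that activates the kinases of G1 and S phase, had 89 counts in A549 and 250 in A549/DDP, 2.52-fold more (1.97 to 3.25). MCM6, a subunit of the replicative helicase, had 172 and 457 (2.39-fold, 2 to 2.86). ORC2, of the origin recognition complex, had 394 and 899 (2.05-fold, 1.82 to 2.31). SKA3 and ZWILCH, both of the kinetochore, and KIF20B, a kinesin of cytokinesis, were the other members with 2-fold differences beside CDK14. The most abundant member was MKI67, the Ki-67 proliferation antigen, with 11059 and 18996 counts (1.54-fold, 1.51 to 1.58). At the other end RBL2, the p130 pocket protein that holds quiescent cells out of the cycle, had 1532 and 929 (1.84-fold lower, 1.69 to 1.99), and this was the lowest log2 ratio of the list at -0.88.

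Replication genes outside that list were named after their values were seen, so they add nothing to the counts of the list. TIPIN, which stabilises stalled replication forks, had 213 counts in A549 and 729 in A549/DDP (3.07-fold, 2.63 to 3.6). ORC1 had 114 and 317 (2.5-fold, 2.01 to 3.12). In the gene ontology terms that the table gives for its hosts, 277 terms had 15 hosts or more. The term with the highest median log2 was G1/S transition of mitotic cell cycle at 0.63 (22 hosts, 5 higher and 0 lower), and DNA replication had 0.55 (34 hosts, 6 higher and 0 lower). The lowest median, -0.47, was that of integral component of plasma membrane (53 hosts, 1 higher and 14 lower). The terms share genes, and they were picked by their values.

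The promoters of MCM6 and CDC25A are shown because both carry a word bound by E2F, the transcription factor family that drives S-phase genes. TTTCCCGC and TTTGGCGC were searched on both strands in the 250 bases before and 50 after each gene start of the RefSeq promoter table (GRCh38.p14). The stretches below lie on the minus strand of chromosome 2 at 135876486 to 135876573 and of chromosome 3 at 48188418 to 48188501, with the word in capitals. The word starts 90 bases before the gene start in MCM6, where a further copy lies 152 bases before it, and 44 bases before it in CDC25A.
MCM6: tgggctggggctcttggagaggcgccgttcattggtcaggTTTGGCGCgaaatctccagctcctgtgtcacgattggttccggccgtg
CDC25A: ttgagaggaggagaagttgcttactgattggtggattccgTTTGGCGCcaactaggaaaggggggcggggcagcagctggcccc
MCM6 and CDC25A were the only 2 of the 7 cell cycle genes called higher that held either word, and all 7 had a promoter in that table. Of 66 measured cell cycle genes with a promoter there, whatever their ratio, 10 (15.2%) held either word in any promoter. This compares with 5.79% of 1743 host genes with a promoter and 2.75% of all 27305 genes of the promoter table. A match of letters is not evidence of binding.

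DNA repair hosts also lay above the median of all hosts, although few reached 2-fold. Of 116 genes listed, 45 were measured, with a median log2 of 0.32 and 36 above 0, and 2 were higher and 0 lower. POLE2, a subunit of DNA polymerase epsilon, had 217 counts in A549 and 604 in A549/DDP (2.5-fold, 2.14 to 2.93). USP1, which removes ubiquitin from FANCD2 and PCNA and so ends crosslink repair and lesion bypass, had 107 and 245 (2.06-fold, 1.63 to 2.61). RAD51C, a recombination factor, had 177 and 381 and fell short of the threshold at 1.93-fold (1.61 to 2.32). Translesion polymerases were closer to no difference, with ratios of 1 (0.81 to 1.24) for POLI and 1.16 (0.97 to 1.39) for REV3L. PRKDC, the catalytic subunit of DNA-PK and the most abundant member, had 7322 and 7689 counts, a ratio of 0.94 (0.91 to 0.97). The 2 calls make 4.44% of the list, so in counts alone the list is near the background of 2.9%, and USP1 is no longer called when scaled by the median ratio (log2 0.97).

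Translation and RNA processing hosts had a median log2 of 0.28, with 70 of 90 above 0, 4 higher and 0 lower. The 4.44% higher is near the 2.9% of all hosts. The 4 were WDR43, DDX21 and NOL10, all of ribosomal RNA synthesis or processing, and CSTF3 of mRNA cleavage. WDR43 had 660 counts in A549 and 1842 in A549/DDP (2.51-fold, 2.29 to 2.74), and DDX21, a nucleolar helicase, 2397 and 5954 (2.23-fold, 2.13 to 2.34). NOP58, a core protein of box C/D snoRNPs that is on no list and was named after its values were seen, had 314 and 1085 (3.1-fold, 2.73 to 3.53). FARSB, a subunit of phenylalanyl-tRNA synthetase named likewise, had 664 and 2118 (2.86-fold, 2.62 to 3.13). PTBP3, a splicing regulator, was the lowest of the list at 2966 and 1682 counts (1.96-fold lower, 1.85 to 2.09), and it passed 2-fold lower with a log2 of -1.02 when scaled by the median ratio.

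**Figure D3:**
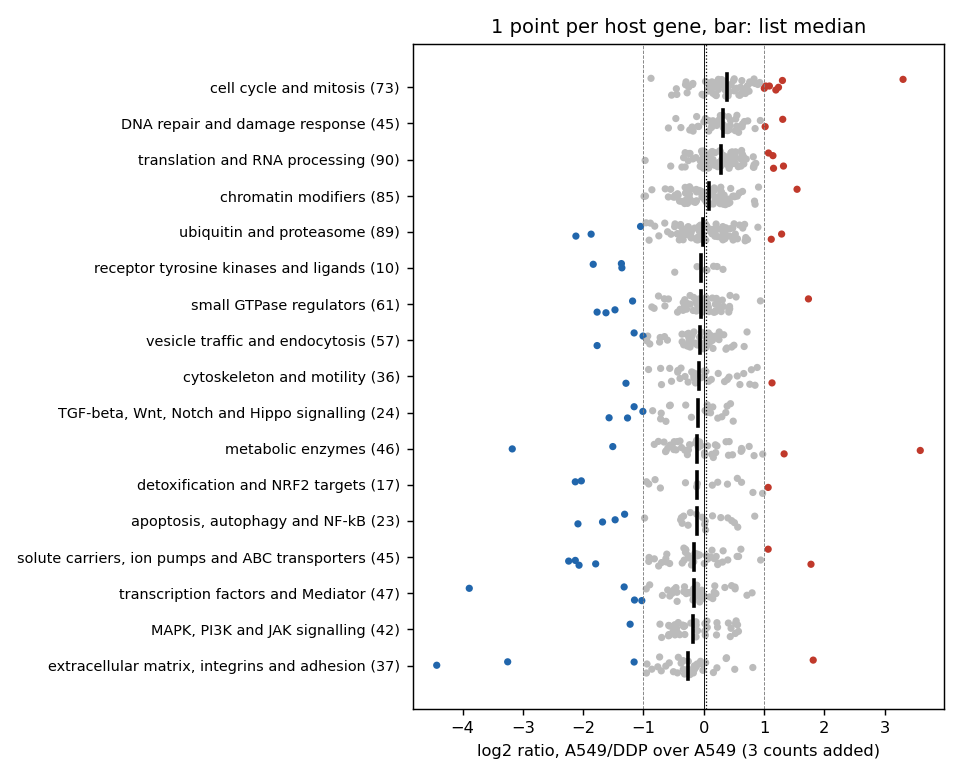
Each point is a host gene and each row a function list, with the number of measured genes in parentheses, the log2 ratio on the x axis and the list median as a bar. The 3 lists with medians of 0.28 to 0.39 (cell cycle, DNA repair, translation) have no gene at or below -1, and the extracellular matrix list has the lowest median at -0.26; dashed lines mark 2-fold and the dotted line the median of all hosts.

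Chromatin modifiers had a median close to that of all hosts. It was 0.08 over 85 genes, with 1 higher (1.18%) and 0 lower, beside 2.9% and 8.34% of all hosts. The single call was EED, the subunit of Polycomb repressive complex 2 that reads trimethylated histone H3, at 84 counts in A549 and 280 in A549/DDP (2.99-fold, 2.34 to 3.87). Scaling by the median ratio added SMARCA1 and UBN2 as lower, at log2 -1.03 and -1.01. Ubiquitin and proteasome hosts had a median of -0.01 over 89 genes, with 2 higher (2.25%) and 3 lower (3.37%), beside the same shares of all hosts. DTL, which targets CDT1 for destruction in S phase, had 150 and 367 counts (2.2-fold, 1.81 to 2.67). KLHL24, a substrate adaptor of cullin 3, had 161 and 39 (4.6-fold lower, 3.22 to 6.7).

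Of 45 measured solute carriers, ion pumps and ABC transporters, 2 were higher and 4 lower, with a median log2 of -0.17. These are 4.44% and 8.89% of the list, near the 2.9% and 8.34% of all hosts. ABCG2, a multidrug efflux pump also called BCRP, had 118 counts in A549 and 459 in A549/DDP (3.49-fold, 2.85 to 4.31). ABCC3, an exporter of organic anions and glucuronides, had 7837 and 1991 (4.38-fold lower, 4.17 to 4.61), and ABCC1, which exports glutathione conjugates, had 9525 and 5634 (1.88-fold lower, 1.82 to 1.95). ABCC2, the pump most often discussed for cisplatin conjugates, had 7110 and 7349, a ratio of 0.93 (0.9 to 0.96). SLC31A1, the copper importer CTR1 that is also reported to carry cisplatin, had 213 and 220, a ratio of 0.93 (0.76 to 1.13). The ABC exporters thus did not move together, and the largest difference among the abundant ones was downward. SLC12A2, a sodium-potassium-chloride cotransporter, had 1011 and 236 (4.77-fold lower, 4.14 to 5.52), and SLC39A8, a zinc and manganese importer, 1104 and 291 (4.23-fold lower, 3.71 to 4.83).

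Of 17 measured detoxification genes and NRF2 targets, 1 was higher and 2 lower, 5.88% and 11.8% of the list beside 2.9% and 8.34% of all hosts. Of the 17, 8 had a log2 ratio above 0 and 9 below, with a median of -0.11. SLC7A11, the cystine importer that supplies glutathione synthesis, had 716 counts in A549 and 1675 in A549/DDP (2.1-fold, 1.92 to 2.3). Its partner subunit SLC3A2, named after its values were seen, had 1240 and 3377 (2.45-fold, 2.29 to 2.61). GCLM, the modifier subunit of the rate-limiting enzyme of glutathione synthesis, had 517 and 1136 (1.97-fold, 1.78 to 2.19). TXNRD1, thioredoxin reductase, had 13690 and 26824 (1.76-fold, 1.72 to 1.8), and NQO1, a quinone reductase, 3994 and 5221 (1.17-fold, 1.13 to 1.22). A549 carries a KEAP1 mutation that keeps the transcription factor NRF2 active, and SLC7A11, GCLM, TXNRD1 and NQO1 are known targets of NRF2. SOD2, mitochondrial superoxide dismutase, had 1670 and 453 (4.11-fold lower, 3.7 to 4.56), and AKR1C2, a ketosteroid reductase and likewise an NRF2 target, 1236 and 711 (1.94-fold lower, 1.76 to 2.13). SOD2 and ABCC3 were the 2 members lower. Of the 12 list members with a RefSeq promoter, 4 (33.3%) held the core of the antioxidant response element (TGACNNNGC, both strands). This compares with 19.7% of host genes and 16.1% of all genes of the promoter table. The 4 members were GCLM, ME1, PGD and TXNRD1, so SLC7A11, the only member called higher, was not among them.

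Of 46 metabolic enzymes, 2 were higher, CPS1 among them, and 2 lower. This is 4.35% in each direction, beside 2.9% higher and 8.34% lower of all hosts. HMGCS1, which makes HMG-CoA for cholesterol synthesis, had 496 counts in A549 and 1396 in A549/DDP (2.53-fold, 2.28 to 2.81). DPYD, which degrades uracil and fluorouracil, had 208 and 23 (10.1-fold lower, 6.53 to 16.2). PKM, pyruvate kinase, an abundant host, had 29524 and 22314 (1.47-fold lower, 1.45 to 1.5).

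Some secreted proteins and adhesion molecules were lower, and C3 and FGA, which are on no list, were picked after their values were seen. FN1, fibronectin, is represented by the intronic circle ciRNA25, which had 171 counts in A549 and 6 in A549/DDP (31.7-fold lower, 14.3 to 87.7). C3, the central complement component, had 1111 and 71 (17.4-fold lower, 13.7 to 22.5). FGA, the fibrinogen alpha chain, had 1082 and 126 (9.56-fold lower, 7.95 to 11.6). SDK1, a cell adhesion molecule, had 198 and 20.5 (10.8-fold lower, 6.81 to 17.9). On the list of extracellular matrix, integrins and adhesion, 29 of 37 measured genes were below 0 with a median log2 of -0.26, and 1 was higher and 3 lower. The 3 are 8.11% of the list, about the share of all hosts (8.34%). ADAMTS6, a metalloprotease, was the exception upward at 9 and 44 counts. TGFBI, an abundant matrix protein, had 13070 and 12911 (1.13-fold lower, 1.1 to 1.16).

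Several genes of the interferon response were lower. They were picked after their values were seen, and interferon genes as a whole were not listed or counted. PARP9, a mono-ADP-ribosyltransferase that enhances interferon signalling, had 1294 counts in A549 and 189 in A549/DDP (7.62-fold lower, 6.54 to 8.93). RNF213, a large interferon-induced ubiquitin ligase, had 17376 and 5299 (3.65-fold lower, 3.54 to 3.77), and all of its 7 circles were lower. IFNGR1, a chain of the interferon-gamma receptor, had 620 and 95 (7.27-fold lower, 5.85 to 9.12). ZNFX1, an interferon-induced RNA helicase, had 1524 and 746 (2.28-fold lower, 2.08 to 2.49). HERC5, the ligase for ISG15, had 17 and 0 counts, at least 6.31-fold lower against a floor of 3 counts in the library.

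Transcription factors had no member 2-fold higher and 4 lower of 47, with 35 below 0 and a median log2 of -0.17. The 4 are 8.51% of the list, about the 8.34% of all hosts. HIF1A, the oxygen-regulated subunit of hypoxia-inducible factor, had 22337 counts in A549 and 11216 in A549/DDP (2.22-fold lower, 2.17 to 2.27), and all 6 of its circles were lower. HIVEP3, a zinc finger protein that binds kappa-B motifs, had 130 and 7 (20.7-fold lower, 9.76 to 52.5). PPARG, the nuclear receptor of adipocyte differentiation, had 1046 and 570 (2.04-fold lower, 1.84 to 2.27). NR5A2, the nuclear receptor LRH-1 of liver and gut, stands outside the list and was among the 10 largest downward differences. It had 2048 and 198 counts (11.5-fold lower, 9.95 to 13.4), and each of its 3 circles was lower. The most abundant, circRNA2051, had 1063 and 98.8 counts.

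Apoptosis and NF-kB hosts had 0 higher and 4 lower of 23, a share of 17.4% beside 8.34% of all hosts. TNFRSF21, the death receptor DR6, had 1832 counts in A549 and 478 in A549/DDP (4.27-fold lower, 3.86 to 4.73). PDCD4, a translation inhibitor lost in several tumours, had 312 and 112 cpm, its counts scaled to the library total (2.79-fold lower, 2.38 to 3.28). IKBKB, the kinase that activates NF-kB, had 89 and 29 (3.42-fold lower, 2.23 to 5.39), and LRRK1 was the other member lower. BIRC2, an inhibitor of apoptosis, had 165 and 333 (1.81-fold, 1.5 to 2.2). Median log2 of the list was -0.12.

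Among receptor tyrosine kinases and ligands, 3 of 10 measured genes were lower (30.0%, beside 8.34% of all hosts) and 0 higher. ERBB2 (HER2) had 291 counts in A549 and 124 in A549/DDP (2.61-fold lower, 2.11 to 3.25), and FGFR2 had 77 and 22 (3.9-fold lower, 2.4 to 6.58). IGF2R, which clears IGF2 and is on the list though it is not a tyrosine kinase, had 340 and 146 (2.59-fold lower, 2.13 to 3.17). EGFR had 136 and 190 (1.25-fold, 1 to 1.58), and IGF1R 5214 and 6017 (1.04-fold, 0.998 to 1.08). NTRK3, the neurotrophin-3 receptor, which was on no list, had 3642 and 635 (6.39-fold lower, 5.87 to 6.96) and no counts in either HCC827 library. Hosts of the TGF-beta, Wnt, Notch and Hippo pathways had 0 higher and 4 lower of 24 (16.7%), led by MAML2, a coactivator of Notch, at 149 and 54 (3.07-fold lower, 2.24 to 4.28). Hosts of MAPK, PI3K and JAK signalling had 1 lower of 42 (2.38%) and 0 higher, and the 1 was RPS6KA5 at 198 and 93 (2.37-fold lower, 1.84 to 3.07). Small GTPase regulators had 1 higher and 4 lower of 61, vesicle traffic genes 0 and 3 of 57, and cytoskeleton genes 1 and 1 of 36, so that 6.56%, 5.26% and 2.78% were lower, all under the 8.34% of all hosts.

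CDR1-AS is a circular RNA with many binding sites for miR-7, and the circle itself is known as the main product of its gene. It had 329 counts in A549 and 48 in A549/DDP (7.63-fold lower, 5.63 to 10.6), on chromosome X at 140783176 to 140784660 on the plus strand, and 0 in both HCC827 libraries. The lncRNA table gave 43.6 and 23.2 read pairs for it (2-fold lower, 1.18 to 3.47). Both were lower in A549/DDP, by different amounts. The microRNA that it binds is shown with its seed in capitals.
hsa-miR-7-5p: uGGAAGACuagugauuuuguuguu

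The lncRNA table held wider differences than the circRNA table. Of 1584 annotated lncRNA genes, 264 (16.7%) were 2-fold or more higher in A549/DDP and 358 (22.6%) lower, with a median log2 of -0.10. Most of these were low in the other library. Of the 264 higher genes, 102 were listed at 0 in A549, and of the 358 lower genes, 67 were listed at 0 in A549/DDP. An entry of 0 can be a failed estimate. LINC00657 (NORAD), a lncRNA that most cells express, was listed at 0 in both A549 libraries and at 11411 and 6293 read pairs in the HCC827 libraries, and RMRP, an RNA needed for ribosome synthesis, was at 0 in 3 of the 4. TERC, the RNA template of telomerase, was listed at 0 in the parental line and had 109 read pairs in its derivative, and SCARNA2, which guides modification of spliceosomal RNA, had 322 in A549/DDP and 0 in A549. No fold is given for such genes.

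The largest differences by rank were entries of this kind. CTD-2256P15.4 was listed at 0 read pairs in A549 and 809 in A549/DDP, CTC-444N24.11 at 0 and 532, and LINC00294 at 0 and 528. In the other direction CTD-2031P19.5 was at 552 and 0, RP11-67L2.2 at 224 and 0, and PAPPA-AS1 at 219 and 0. All 20 genes at the 2 ends of the ranking are made of 1 annotated transcript each. Only 2 of the 20 were above 0 in both libraries: RP11-609D21.3 with 401 and 1.5 read pairs and RP11-804A23.4 with 0.91 and 270.

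Among the 892 genes with 20 read pairs or more in both libraries, 52 (5.83%) were higher and 81 (9.08%) lower. PAGR1, a name shared with a protein-coding gene, had 77.6 read pairs in A549 and 1513 in A549/DDP (18.3-fold, 14.6 to 23.3). LINC00707, an intergenic lncRNA, had 34.7 and 494 (13.4-fold, 9.46 to 19.4), and 201 and 941 over all transcripts of the table that overlap it, a log2 ratio of 2.12 in place of 3.63. RP11-386G11.10 was among the most abundant genes and had 1573 and 7952 (4.75-fold, 4.5 to 5.01). RP11-192H23.7 had 317 and 35.2 (9.59-fold lower, 6.76 to 14), and DHRS4-AS1, antisense to a retinol dehydrogenase gene, 248 and 45.5 (5.79-fold lower, 4.21 to 8.13). By name, among all 1584 genes, 38 of 278 antisense genes were higher (13.7%) and 64 lower (23.0%). LINC genes had 11 (12.6%) and 23 (26.4%) of 87, and clone-named genes 182 (17.0%) and 236 (22.1%) of 1069. These shares are near the 16.7% and 22.6% of all 1584 genes. Since strand is not stated in the protocol, reads of an antisense gene and of its partner cannot be told apart.

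**Figure D4:**
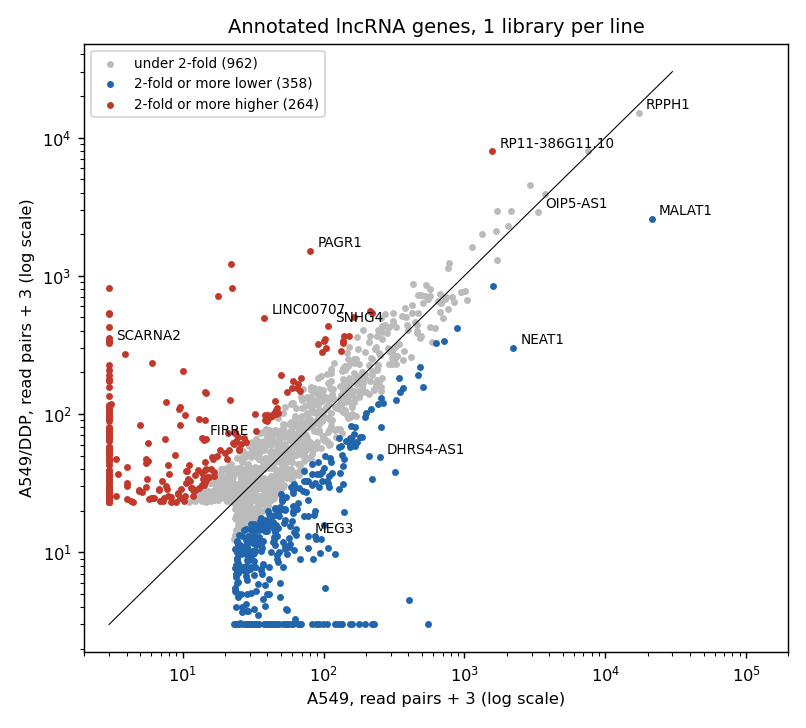
Each point is an annotated lncRNA gene, with read pairs + 3 in A549 on the x axis and in A549/DDP on the y axis, both on log scales. The columns of points at the left and bottom edges are genes listed at 0 in 1 library, 102 in A549 among the 264 higher and 67 in A549/DDP among the 358 lower, and MALAT1 and NEAT1 lie below the diagonal at high counts.

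MALAT1 and NEAT1, abundant lncRNAs found in nuclear bodies, were both lower in A549/DDP. MALAT1, a nuclear speckle RNA, had 21348 read pairs over its 15 annotated transcripts in A549 and 2586 in A549/DDP (8.79-fold lower, 8.44 to 9.16). The size of this difference rests on how reads were given to transcripts. Over all transcripts of the table that overlap the gene on its strand, unannotated ones included, the log2 ratio was -1.71 in place of -3.13, and ciRNA3, a circle inside MALAT1, had 1135 and 585 counts (2.16-fold lower, 1.95 to 2.39). NEAT1, the scaffold of paraspeckles, had 2213 and 300 (7.86-fold lower, 6.97 to 8.9), with a log2 ratio of -2.28 over all transcripts against -2.96. Both genes were lower by every one of these measures. FIRRE (above) and MIAT were higher, MIAT on 7.39 and 22.4 read pairs. OIP5-AS1, an abundant cytoplasmic lncRNA also known as Cyrano, had 3342 and 2902 (1.23-fold lower, 1.17 to 1.29), and KCNQ1OT1, which silences an imprinted domain, 1008 and 775 (1.38-fold lower, 1.26 to 1.52). RPPH1, the RNA subunit of ribonuclease P, had 17342 and 15131 (1.22-fold lower, 1.19 to 1.25).

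Of 27 measured host genes of snoRNAs, 19 had a log2 ratio above 0 and the median was 0.32, against -0.10 for all lncRNA genes, and 4 were higher and 5 lower. These are 14.8% and 18.5%, near the 16.7% and 22.6% of all lncRNA genes. SNHG4 had 105 read pairs in A549 and 434 in A549/DDP (3.88-fold, 3.13 to 4.85), and DANCR, which restrains differentiation, 29.4 and 96.2 (3.07-fold, 2.01 to 4.81). SNHG1 had 429 and 870 (1.9-fold, 1.69 to 2.14), GAS5 771 and 1244 (1.51-fold, 1.38 to 1.66), SNHG16 1334 and 1989 (1.4-fold, 1.31 to 1.5) and ZFAS1 527 and 708 (1.26-fold, 1.13 to 1.42). Several of these spliced transcripts are known to be short-lived because translation marks them for nonsense-mediated decay. SNHG3 went the other way with 1584 and 842 (2-fold lower, 1.84 to 2.18), a call that ends when scaled by the median ratio (log2 -0.91). EPB41L4A-AS1 had 216 and 30.9 (7.45-fold lower, 5.09 to 11.2), with a log2 of -1.66 over all transcripts against -2.78.

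MicroRNA host genes with 2-fold differences were 4 higher and 2 lower of 16 measured, 25% and 12.5% beside 16.7% and 22.6% of all lncRNA genes. Of the 16, 7 had a log2 ratio above 0 and 9 below, with a median of -0.08, beside -0.10 for all lncRNA genes. MIR497HG had 5.84 read pairs in A549 and 47.8 in A549/DDP (7.69-fold, 3.25 to 22.4). DLEU2, which is on the snoRNA host list too, had 46.9 and 187 (3.75-fold, 2.71 to 5.28), and over all overlapping transcripts its log2 ratio was 0.98 in place of 1.84, just under 2-fold. The hosts of all 4 miR-15/16 family members printed above were therefore higher by annotated transcripts, DLEU2 by less than 2-fold over its locus. MIR17HG had 20.4 and 70.4 (3.24-fold, 1.95 to 5.59), and MIR222HG 57.7 and 171 (2.79-fold, 2.06 to 3.82). MIR210HG had 25.6 and 5.72 (4.77-fold lower, 1.89 to 14.6). HIF1A, whose product induces miR-210, was lower as a circRNA host (above), and a link between them was not tested. MIR31HG had 98.9 and 47 (2.24-fold lower, 1.57 to 3.25) and, as a circRNA host, 74 and 20 counts. The imprinted precursor H19 had 105 and 91.2, a ratio of 0.82 (0.61 to 1.09).

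**Figure D5:**
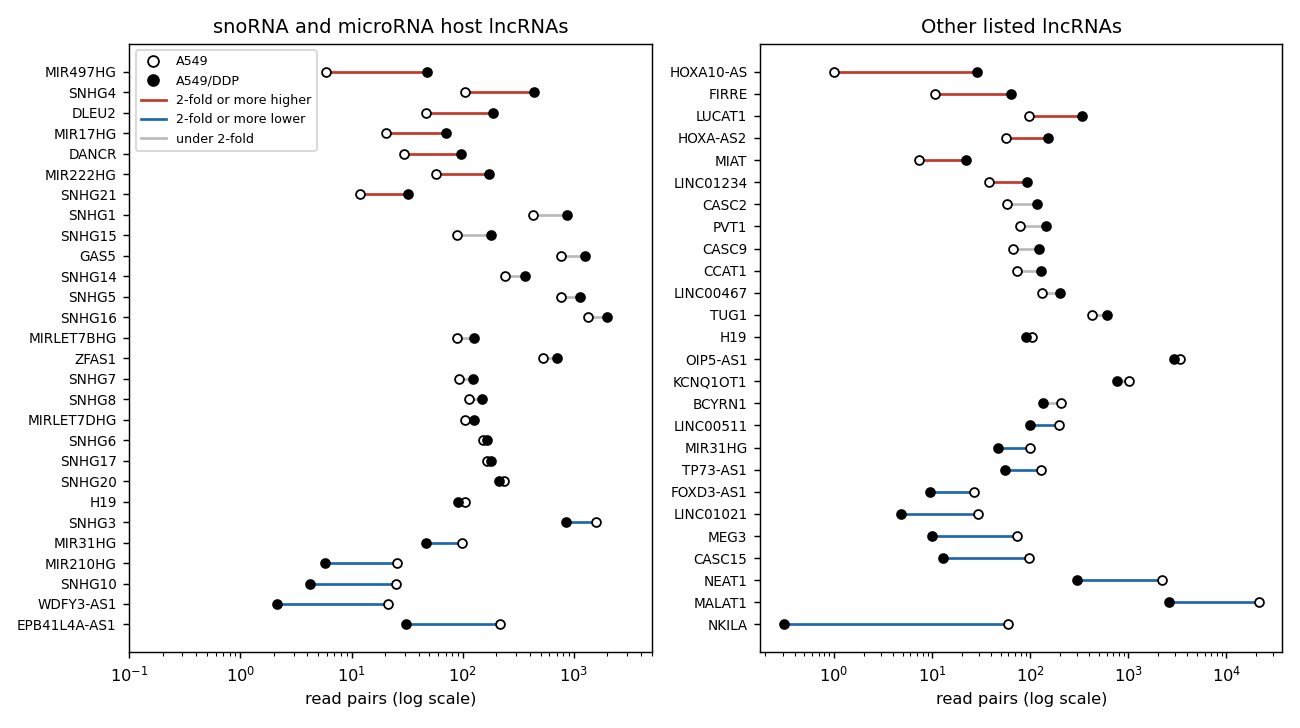
Open and filled circles give the read pairs of a lncRNA gene in A549 and A549/DDP on a log scale, and lines are red or blue where the scaled difference was 2-fold or more higher or lower and grey otherwise. In the left panel most of the SNHG and microRNA host genes shown have the filled circle to the right. The genes shown were picked by a 2-fold difference or by abundance, so not every measured gene appears. Of all 16 measured microRNA host genes, 7 had a log2 ratio above 0 and 9 below. In the right panel MALAT1 and NEAT1 drop from 21348 to 2586 and from 2213 to 300 read pairs. Genes listed at 0 are left out.

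A549 has wild-type p53, which is activated by cisplatin damage. Of 20 lncRNAs linked to the p53 response, 7 passed the minimum, all 7 had a log2 ratio below 0, 4 were lower and 0 higher, and the median was -1.27. Lower calls were thus 57.1% of these few genes, beside 22.6% of all lncRNA genes. Over all transcripts at each locus 3 were lower, 1 was above 0 and the median was -0.77. The 4 were NEAT1, MEG3, LINC01021 and TP73-AS1. MEG3, an imprinted lncRNA that raises p53 activity, had 74.1 read pairs in A549 and 9.99 in A549/DDP (7.89-fold lower, 4.06 to 17.1), and 74.1 and 18.0 over all transcripts, a log2 ratio of -1.97 in place of -2.66. TP73-AS1 had 130 and 55.9 (2.48-fold lower, 1.8 to 3.46). LINC01021, a p53 target also called PURPL, had 29.6 and 4.87 (6.47-fold lower, 2.46 to 21.8), but its log2 ratio was 0.27 over all transcripts that overlap it, so its direction depends on the transcripts counted.

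Of 70 lncRNAs that have been discussed in drug resistance, 37 were measured, with 4 higher, 9 lower and a median log2 of 0.24. These are 10.8% and 24.3%, beside 16.7% and 22.6% of all lncRNA genes. LUCAT1, induced by NRF2 and by smoke, had 97.3 read pairs in A549 and 335 in A549/DDP (3.23-fold, 2.57 to 4.09), whereas all transcripts over the gene gave 609 and 672 with a log2 ratio of 0.05. LINC01234 had 38 and 93.3 (2.31-fold, 1.57 to 3.46), and MIAT and DANCR were the other higher members. CASC15 had 98.1 and 12.8 (8.17-fold lower, 4.54 to 16) and LINC00511 196 and 98.8 (2.12-fold lower, 1.65 to 2.72). The call of LINC00511 ends when scaled by the median ratio (log2 -0.97) and over all its transcripts, which had 957 and 621 read pairs (log2 -0.71). NKILA, which holds NF-kB in its inhibited form, had 59.8 and 0.31 read pairs. PVT1, the neighbour of MYC, had 78.3 and 145 (1.74-fold, 1.31 to 2.32), but 682 and 642 over all transcripts at the locus (log2 -0.18), while its exons in the circRNA table had 1884 and 2105 counts with a log2 ratio of 0. UCA1 was below the minimum with 6 and 0 read pairs. In the HOXA cluster, HOXA-AS2 had 56.6 and 151 (2.5-fold, 1.83 to 3.46) and HOXA10-AS 1 and 28.5, while 3 other measured HOX lncRNAs were between -0.12 and 0.06 on the log2 scale.

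LncRNA genes that also host circles allow the 2 tables to be set side by side. Of 23 such hosts, 16 passed both minima, and 12 had the same sign in both. FIRRE, GAS5, CYP1B1-AS1, MIR31HG, MALAT1 and CDR1-AS were among the 12. POLR2J4 was the widest disagreement, with 100 and 2.52 read pairs over its annotated transcripts, 158 and 219 counts as a circRNA host, and a log2 ratio of -0.16 over all transcripts at the locus. Other transcripts overlapped 69 of the 264 higher and 101 of the 358 lower lncRNA genes on their strand. With these included, 245 and 322 genes were still called in the same direction, and the called genes without such transcripts have the same value by construction.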

How the data were processed

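Ribosomal RNA-depleted libraries were sequenced as read pairs, 1 library per line. According to the methods, the authors trimmed reads with Cutadapt, aligned them with Bowtie 2 and TopHat2 (the submitters' processing notes name TopHat), and assembled and quantified transcripts with StringTie and Ballgown. No source used states tool versions or the build. For each lncRNA transcript, FPKM and mean coverage (signal) were deposited by the authors. For each circRNA, the authors deposited estimated counts, made with a counter that no source used here names, and FPKM.

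The aligned bases of a library follow from the ratio of coverage to FPKM, which was the same for its transcripts. Coverage times length, divided by the 302 bases that were commonest on single-exon annotated transcripts, gave read pairs, which were summed per annotated gene. Estimated counts were used without rounding, per circRNA and summed per host. Ratios have exact conditional Poisson (Clopper-Pearson) intervals at 95%, extended to fractional counts, for counting error only. PCR copies are not independent molecules. The comparison code was tested on simulated data. Gene names are those of the tables. The members and lists were chosen with earlier results of these data known. The genes named were the 10 largest differences in each direction and the 10 most abundant lncRNA genes and circRNAs, members of the lncRNA lists with a 2-fold difference or 100 read pairs, and for each function list the 3 largest in each direction and the most abundant. Not every gene so chosen is described. A result among them is not reported here. Genes with 20 read pairs in both libraries were ranked in the same way after seeing the data, and other genes named outside the rule were also chosen after their values were seen. Host lists overlap. No P value was computed. Scripts ran in Python 3.11.15 with scipy 1.17.1, numpy 2.4.6, pandas 2.3.3 and, for plots, matplotlib 3.10.9.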

Additional observations from a re-analysis of the deposited data

Results flagged for a closer look

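The 21 results below differed in opposite directions by 2-fold or more between A549/DDP and A549 and between HCC827/GR and HCC827. Each had 100 counts or read pairs or more in the higher library of both pairs and was above 0 in all 4 libraries. The difference between the pairs was not tested, since each line is 1 library. HCC827/GR also had 574 circRNAs at 0 counts, against 62 in HCC827 and 7 and 15 in the A549 lines. 

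The first value in parentheses is the log2 ratio of A549/DDP to A549 and the second that of HCC827/GR to HCC827. Host genes higher in A549/DDP and lower in HCC827/GR were POLE2 (1.31 and -1.94), USP1 (1.02 and -1.85), SLC7A11 (1.07 and -1.94), CPS1 (3.59 and -2.28), PDE3A (2.61 and -1.71) and FIRRE (2.31 and -1.16). Host genes lower in A549/DDP and higher in HCC827/GR were KLHL24 (-2.12 and 1.09), ERBB2 (-1.37 and 1.55), ARHGAP26 (-1.77 and 1.67), ABCC3 (-2.13 and 1.08), SOD2 (-2.03 and 1.08), MAML2 (-1.57 and 1.62), TNFRSF21 (-2.09 and 1.48), SVIL (-1.29 and 1.18), HIVEP3 (-3.89 and 1.09), LRRC6 (-3.70 and 1.77) and NR5A2 (-3.51 and 3.38). The widest contrast was that of the nuclear receptor gene NR5A2, which had 2048 counts in parental A549 and 198 in its derivative, against 390 in parental HCC827 and 3090 in its derivative. Among lncRNA genes, counted over annotated transcripts, LINC00707 (3.63 and -2.42) was higher in A549/DDP (log2 2.12 over all transcripts at its locus). NEAT1 (-2.96 and 1.30), EPB41L4A-AS1 (-2.78 and 1.62) and LINC00511 (-1.06 and 1.90) were lower. Over all transcripts at its locus NEAT1 had 3239 read pairs in HCC827 and 3017 in HCC827/GR, so its 2-fold rise there depends on the transcripts counted. LINC00511 had a locus log2 of -0.71 in the A549 pair, under 2-fold, and 840 and 1397 read pairs in HCC827 and HCC827/GR. EPB41L4A-AS1 had a locus log2 of -1.66 in the A549 pair, and 93.4 and 259 read pairs in the other. The first values of USP1 and LINC00511 are under 2-fold when scaled by the median ratio, at 0.97 and -0.97.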

How the results depend on the processing

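No paired analysis was possible because each line is 1 library, and no replicate could be left out for the same reason. The number of lncRNA genes called depended most on the minimum. At 50 read pairs in either library, 129 of 750 genes (17.2%) were higher and 145 (19.3%) lower. At 5 read pairs these were 642 (17.8%) and 995 (27.6%) of 3609. The main shares were 16.7% and 22.6% of 1584, so the share higher changed little with these minima. With a pseudocount of 1 FPKM the counts were 159 (10.0%) and 187 (11.8%) of 1584. With 20 read pairs required in both libraries, an alternative chosen after seeing the data, they were 52 (5.83%) and 81 (9.08%) of 892. Fewer or more genes enter at the other minima, and requiring both libraries removes the genes listed at 0. The other alternatives left the counts of lncRNA genes, circRNAs and hosts within 1.5 times. Scaling by the median ratio moved log2 values by 0.09 in lncRNA genes and by -0.04 in circRNAs and hosts, and scaling circRNAs to aligned bases by 0.06. The median ratio ended 5 calls of named genes (SNHG3, LINC00511, KIF20B, ORC2 and USP1) and added 4 (SNHG1, SMARCA1, UBN2 and PTBP3). Counting all transcripts over a gene, also chosen after seeing the data, ended 5 calls (DLEU2, SCARNA9, LINC00511, LUCAT1 and LINC01021) and turned LINC01021 to a log2 of 0.27, and the cause was not tested. Under the scalings, 289 values of named genes and circRNAs moved by no more than 0.5 of the width of their counting interval and 33 by more. Counting error is all that the depth describes, and without a second library per line the spread between cultures is unknown.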
